A study of Homo sapiens with 6 samples.

Results

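The ATP-sensitive potassium channel (KATP channel) and the voltage-gated calcium channels of the human β cell line EndoC-βH1 were examined through 10 named genes. The genes were taken by symbol: KCNJ11 and ABCC8 for the KATP channel, and CACNA1A, CACNA1C, CACNA1D, CACNA1H, CACNA2D1, CACNA2D2, CACNB2 and CACNB3 for the calcium channels. They are 10 of 60671 gene identifiers in each file, and 10 of 10 passed the filter on low counts that left 17649 genes for testing. Polyadenylated RNA was sequenced from 3 samples given the vehicle DMSO and from 3 samples given 1 µM AZD7762, an inhibitor of the checkpoint kinases CHEK1 and CHEK2. Both groups carried the genotype labelled WT, had a starvation step of 1 h in 0.5 mM glucose followed by a stimulation step of 1 h, with DMSO or AZD7762 present in both steps. Stimulation used 0.5 mM or 20 mM glucose, and which of these each library received is not given in the labels. The cells are a single immortalized line, and the labels do not say that the replicates came from separate cultures. The p-values therefore set the difference between the groups against the spread between these samples only.

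In β cells, the KATP channel couples metabolism to membrane voltage. It is an assembly of Kir6.2, the potassium pore encoded by KCNJ11, and SUR1, the regulatory subunit encoded by ABCC8 and the target of sulfonylurea drugs. At low glucose its potassium current holds the cell at rest, and a rise in ATP from metabolism shuts it off. Calcium channels sense the resulting change in voltage, and the calcium they admit is the signal for insulin granules to fuse. Each high-voltage-activated calcium channel has a pore-forming α1 subunit, a cytoplasmic β subunit that brings the pore to the plasma membrane, and an extracellular α2δ subunit. CACNA1C and CACNA1D encode the L-type pores Cav1.2 and Cav1.3, CACNA1A encodes the P/Q-type pore Cav2.1, and CACNA1H encodes the T-type pore Cav3.2, which opens at lower voltages.

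The sequence in front of a start site is shown for 3 genes that span the range of levels, namely CACNA2D1, the highest of the 10, CACNA1D, in the middle, and CACNA1A, the lowest. Each is the 250 bases before a start site in RefSeq on GRCh38.p14, read 5′ to 3′ along the gene, with capitals for every GC box, GGGCGG or CCGCCC on the other strand, where neighbouring boxes may overlap. They lie at chr7:82443957-82444206 on the minus strand, chr3:53494361-53494610 on the plus strand and chr19:13506480-13506729 on the minus strand.
CACNA2D1: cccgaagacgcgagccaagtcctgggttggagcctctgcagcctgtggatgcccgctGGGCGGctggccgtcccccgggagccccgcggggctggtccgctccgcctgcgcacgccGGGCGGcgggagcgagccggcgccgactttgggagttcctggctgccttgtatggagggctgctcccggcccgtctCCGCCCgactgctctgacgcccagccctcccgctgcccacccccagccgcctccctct
CACNA1D: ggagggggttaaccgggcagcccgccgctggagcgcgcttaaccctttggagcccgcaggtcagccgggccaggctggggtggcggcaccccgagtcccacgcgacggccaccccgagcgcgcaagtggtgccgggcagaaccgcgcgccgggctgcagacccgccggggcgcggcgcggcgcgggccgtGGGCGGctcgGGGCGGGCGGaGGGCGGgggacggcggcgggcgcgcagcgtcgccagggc
CACNA1A: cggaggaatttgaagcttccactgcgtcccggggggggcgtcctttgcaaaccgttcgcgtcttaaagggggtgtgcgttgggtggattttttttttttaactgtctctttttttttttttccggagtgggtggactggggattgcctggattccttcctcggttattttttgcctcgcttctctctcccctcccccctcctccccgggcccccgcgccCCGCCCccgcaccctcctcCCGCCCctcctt
The window of CACNA2D1 held 3 GC boxes and 75.6% G and C, that of CACNA1D 4 boxes and 81.6%, and that of CACNA1A 2 boxes and 58.8%. RefSeq windows were matched for 7 of the 10 genes, in 13 windows, and not for KCNJ11, ABCC8 and CACNA1H. A GC box stood in 7 of the 13 windows, against 42.6% of 35116 windows of all genes. The TATA box TATAAA (or TTTATA) stood in 0 of the 13, against 10.7%, and the full cAMP response element TGACGTCA in 0 of the 13, against 1.65%. The half-site TGACG (or CGTCA), part of the full element, was in 4 windows, against 21.2% of all windows, and CCAAT (or ATTGG) was in 1, against 32.0%. These matches are a description of letters in the windows.

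The libraries held between 20486391 and 29402440 counts on genes, so that 3 counts, taken as the floor of detection, were worth between 0.102 and 0.146 counts scaled to a common library total (CPM) for counting error only. Each of the 10 genes was well above it, with between 122 counts in a sample for CACNA1A and 35253 for CACNA2D1. Together the 10 genes held between 0.156% and 0.176% of all counts in a library, of which CACNA2D1 alone took between 69.4% and 73.3%, a share of counts that is not scaled to length. The libraries differed in base composition, with a count-weighted exon GC of 47.64%, 47.44% and 47.98% in DMSO replicates 1, 2 and 3 and of 48.04%, 47.65% and 47.96% in AZD7762 replicates 1, 2 and 3. Mitochondrial genes took between 1.57% and 2.13% of counts with DMSO and between 2.26% and 2.63% with AZD7762. In bulk RNA, fewer cells expressing a gene and less of its RNA per cell cannot be told apart.

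The cell type label was checked against marker genes. All 16 β cell markers listed were expressed above the filter, among them INS, which encodes insulin, at 1016 to 1663 normalized CPM with DMSO and 1132 to 1616 with AZD7762. CHGA, a protein of secretory granules, lay between 3377 and 4047 normalized CPM over the 6 samples. The summed level of the β cell markers was 8820 to 10027 normalized CPM with DMSO and 9592 to 10058 with AZD7762. Of 7 markers of other islet cells 5 were tested and 0 were called, and their summed level was 287 to 322 normalized CPM with DMSO and 338 to 355 with AZD7762, most of it SST, the hormone of δ cells. SST read 227, 202 and 214 normalized CPM with DMSO and 265, 253 and 242 with AZD7762, GCG, the hormone of α cells, did not exceed 1.95, and HHEX, a transcription factor of δ cells, lay between 16.2 and 22.3. Of 14 markers of exocrine, ductal, stromal, endothelial and immune cells, 13 were matched, 5 were tested and 0 were called. PRSS1, AMY2A, CELA3A and CD3E had no count in any sample, and the list summed to 59.7 to 71.7 normalized CPM with DMSO and 66.2 to 74.8 with AZD7762, mainly the pancreatic enzyme gene CPA1 and the duct keratin KRT19. The parts of SST and of these other markers in the results below were not tested.

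The comparison of AZD7762 with DMSO asked whether the level of each channel gene differed after exposure to the inhibitor during a glucose stimulation experiment. By the quasi-likelihood test of edgeR, adjusted by the Benjamini-Hochberg method over all 17649 genes, 0 of the 10 genes were called at an adjusted p under 0.05, with a background of 0.708% of all genes called. The adjusted p of the 10 genes ran from 0.662 for CACNA2D2 to 0.998 for CACNA1A. At an unadjusted p under 0.05 the count was 0 of 10, with a background of 9.68%, and DESeq2 called 0 of 10. In normalized CPM, the DMSO and AZD7762 groups overlapped for 10 of 10 genes, whereas 15.0% of all genes had groups that did not overlap. The log2 fold change, AZD7762 over DMSO, was positive for 5 genes and negative for 5, with a median of -0.0041 over the 10 and 0.0076 over all genes tested. In size, the median log2 fold change was 0.078 for the 10 genes and 0.091 for all genes. These intervals and p-values leave small differences unresolved: the widest 95% confidence limits over the 10 genes reached a fold of 0.792 at the low end, for CACNB2, and 1.31 at the high end, for CACNA1H. A difference of 0.5 on the log2 scale, a fold of 1.41, lay outside the 95% interval of each of the 10 genes.

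**Figure D1:**
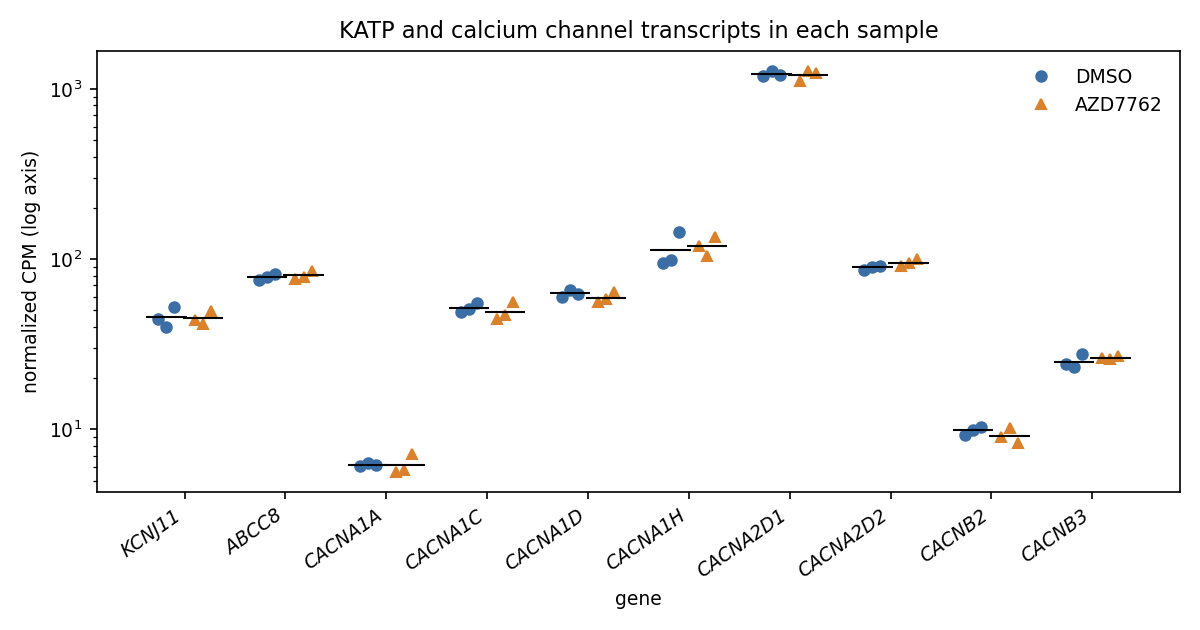
Normalized CPM on a log axis for the 10 channel genes, with circles for the 3 DMSO samples, triangles for the 3 AZD7762 samples and a line at each group mean. The groups overlap for 10 of 10 genes, and CACNA2D1 stands above 1114 in every sample.

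**Figure D2:**
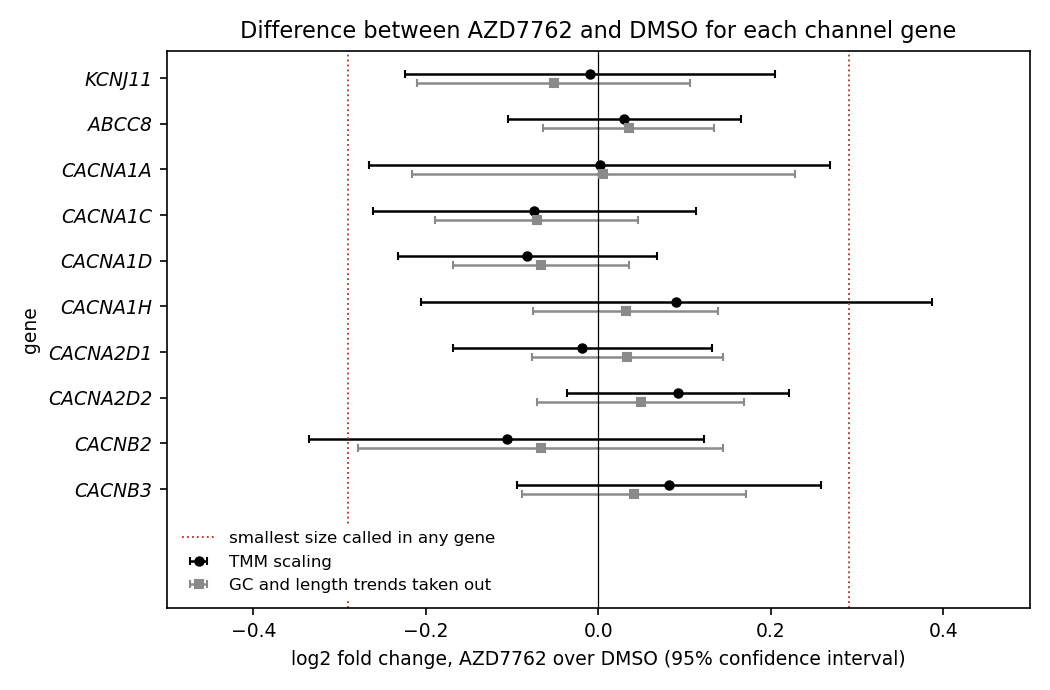
Log2 fold change of AZD7762 over DMSO with its 95% confidence interval for each channel gene, by TMM scaling (black) and with GC and length trends taken out (grey). Every interval includes 0, and the dotted lines mark 0.29, the smallest size of log2 fold change called in any gene.

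The KATP channel genes did not differ detectably between the groups. KCNJ11 (ENSG00000187486), the pore gene, lies on the minus strand at chr11:17386719-17410878 of GRCh37. It read 44.2, 39.8 and 52.3 normalized CPM in DMSO replicates 1, 2 and 3 and 43.6, 41.8 and 49.9 in AZD7762 replicates 1, 2 and 3. The AZD7762 samples lay inside the DMSO range, and the highest sample was DMSO replicate 3. The means were 45.5 ± 6.34 (SD, n = 3) with DMSO and 45.1 ± 4.24 (SD, n = 3) with AZD7762, and the log2 fold change was -0.0096 ± 0.099 (SE), with a 95% interval from -0.22 to 0.20 and an adjusted p of 0.986. ABCC8 (ENSG00000006071), which encodes the sulfonylurea receptor, is the neighbour of KCNJ11 on the same strand, at chr11:17414045-17498441, with a gap of 3166 bp between the annotated genes. ABCC8 read 75.8, 78.5 and 81.2 normalized CPM with DMSO and 76.8, 78.6 and 85.1 with AZD7762. Replicate 3 was the highest of its group in both genes and both groups. The log2 fold change of ABCC8 was 0.030 ± 0.062 (SE), with a 95% interval from -0.11 to 0.16 and an adjusted p of 0.916.

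The ratio of the KATP genes was also taken within each sample, to set the groups side by side. It is not scaled to length and does not show which gene had the higher level, since per length the mean of ABCC8 lay under that of KCNJ11, at a ratio of 0.313 per kb of exon union and 0.898 per kb of longest transcript. The ratio of ABCC8 to KCNJ11 normalized CPM was 1.72, 1.97 and 1.55 with DMSO and 1.76, 1.88 and 1.71 with AZD7762. The AZD7762 samples lay inside the range of the DMSO samples. The means were 1.75 ± 0.211 and 1.78 ± 0.0896 (SD, n = 3 each). Of the paralogs of this channel, KCNJ8, the gene of Kir6.1, lay between 6.70 and 8.10 normalized CPM and ABCC9, the gene of SUR2, between 0.437 and 1.10. Of these 2 genes 0 were called, and their log2 fold changes were 0.012 ± 0.11 (SE) and -0.44 ± 0.33 (SE).

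The 4 pore-forming genes followed the same description. CACNA1D (ENSG00000157388, chr3:53362990-53847760, plus strand), the gene of Cav1.3, read 60.2, 65.9 and 62.1 normalized CPM with DMSO and 55.8, 58.1 and 64.1 with AZD7762. The lowest pair of samples were AZD7762 replicates 1 and 2, while AZD7762 replicate 3 lay within the DMSO range. Its log2 fold change was -0.082 ± 0.069 (SE), with a 95% interval from -0.23 to 0.067 and an adjusted p of 0.756. CACNA1C (ENSG00000151067, chr12:2079938-2807116, plus strand), the gene of Cav1.2, read 48.6, 51.1 and 55.5 normalized CPM with DMSO and 44.5, 47.0 and 55.7 with AZD7762. The lowest and the highest of its 6 samples were both AZD7762 samples. Its log2 fold change was -0.074 ± 0.086 (SE), with a 95% interval from -0.26 to 0.11 and an adjusted p of 0.839, and without AZD7762 replicate 3 it was -0.17 with an adjusted p of 0.417. The ratio of CACNA1D to CACNA1C normalized CPM, also not scaled to length, 1.24, 1.29 and 1.12 with DMSO and 1.25, 1.23 and 1.15 with AZD7762, overlapped between the groups.

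CACNA1A (ENSG00000141837, chr19:13317256-13743839, minus strand), the P/Q-type pore gene, was the lowest of the 10 genes. It read 6.06, 6.36 and 6.13 normalized CPM with DMSO and 5.65, 5.80 and 7.18 with AZD7762. The AZD7762 samples lay on both sides of the DMSO samples. CACNA1A had a log2 fold change of 0.0015 ± 0.12 (SE), with a 95% interval from -0.27 to 0.27. Its sign was negative under other scalings, and it was -0.11 without AZD7762 replicate 3.

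CACNA1H (ENSG00000196557, chr16:1203106-1271771, plus strand), the T-type pore gene, had the largest spread between replicates. It read 95.1, 98.8 and 143 normalized CPM in DMSO replicates 1, 2 and 3 and 119, 105 and 135 in AZD7762 replicates 1, 2 and 3. DMSO replicate 3 was the highest of the 6 samples and the other DMSO samples were the lowest. The means were 112 ± 26.9 (SD, n = 3) with DMSO and 119 ± 15.3 (SD, n = 3) with AZD7762, and the log2 fold change was 0.090 ± 0.14 (SE), with a 95% interval from -0.21 to 0.39 and an adjusted p of 0.882. Without DMSO replicate 3 the log2 fold change was 0.30, with an adjusted p of 0.146, and without DMSO replicate 1 it was -0.023.

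The spread of CACNA1H was set beside the base composition of the libraries. At 66.4% GC in its exons, CACNA1H was the most GC-rich of the 10 genes, and its lowest values were in the 3 libraries with the lowest count-weighted GC. Among the other 3 libraries the order did not follow GC, since AZD7762 replicate 1, with the highest GC, read 119, under DMSO replicate 3 at 143 and AZD7762 replicate 3 at 135. Once smooth trends in GC content and length had been taken out of each library across all genes, CACNA1H read 107, 118 and 116 with DMSO and 113, 118 and 117 with AZD7762, in units of CPM. Its coefficient of variation (CV) between replicates, pooled over both groups, went from 19.2% to 4.07%. The log2 fold change was then 0.032 ± 0.050 (SE). The CV of 8 of the 10 genes was lower after this step, with a median over the 10 of 7.45% before and 3.55% after. It was higher for CACNA2D2, at 3.74% before and 5.80% after, and for CACNB2, at 8.11% and 8.51%. Part of a lower CV is built in, since the trends were fitted to the deviations of these same samples. No share over all genes is given here, so the count is not a result about the channel genes. After this step the 95% intervals of the 10 genes lay between -0.28 and 0.23, and 0 of 10 were called. The trends were fitted in each library without regard to treatment. A difference between the groups that followed GC or length would therefore be taken out as well. The part of base composition in the spread of CACNA1H was not tested.

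**Figure D3:**
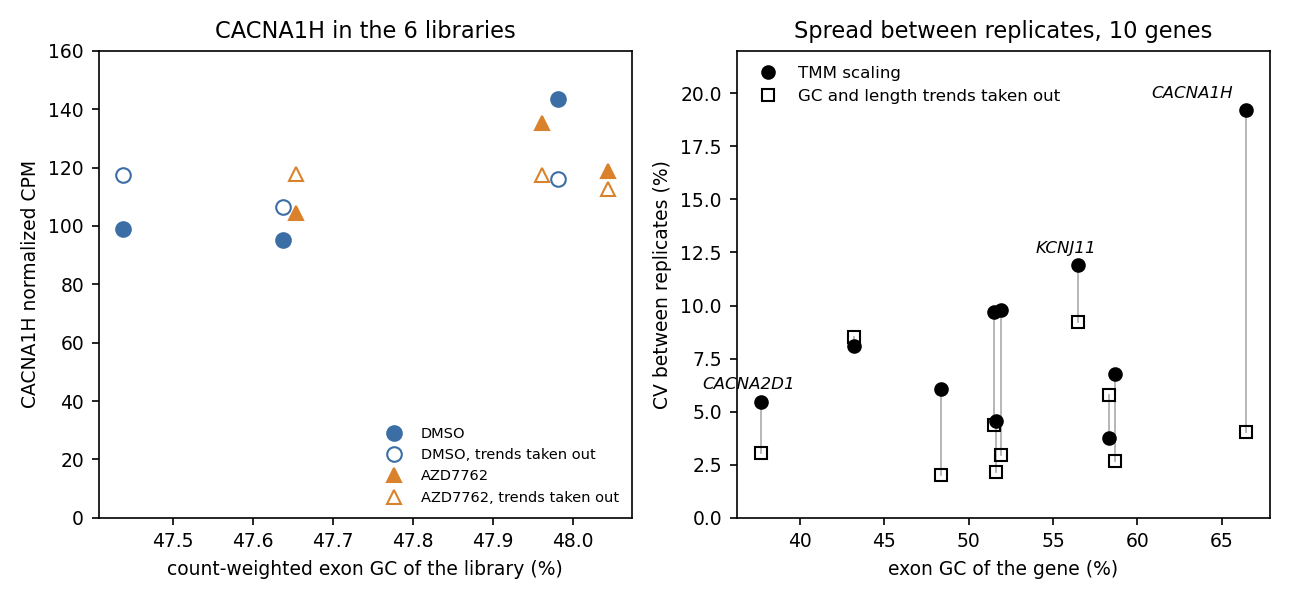
Left, CACNA1H normalized CPM against the count-weighted exon GC of each library, filled symbols by TMM scaling and open symbols with GC and length trends taken out. Right, the CV between replicates of the 10 genes against their exon GC, before (circles) and after (squares), with CACNA1H going from 19.2% to 4.07%.

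Among the auxiliary subunits, CACNA2D1 was the most abundant channel transcript. CACNA2D1 (ENSG00000153956, chr7:81575760-82073272, minus strand), an α2δ gene whose product binds gabapentin, was at the 99.8th percentile of mean normalized CPM over all genes tested. It read 1193, 1277 and 1200.3 normalized CPM with DMSO and 1114, 1265 and 1244 with AZD7762. The lowest sample was AZD7762 replicate 1, and the AZD7762 samples otherwise lay within the DMSO range. The log2 fold change was -0.019 ± 0.069 (SE), with a 95% interval from -0.17 to 0.13 and an adjusted p of 0.953, and it was 0.034 with GC and length trends taken out.

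CACNA2D2 (ENSG00000007402, chr3:50400044-50541675, minus strand), another α2δ gene, had the smallest p of the 10. It read 86.8, 90.3 and 91.0 normalized CPM with DMSO and 90.9, 95.1 and 99.8 with AZD7762. Only AZD7762 replicate 1 fell among the DMSO samples, just under DMSO replicate 3. The means were 89.4 ± 2.25 (SD, n = 3) and 95.3 ± 4.43 (SD, n = 3), and the log2 fold change was 0.092 ± 0.059 (SE), with a 95% interval from -0.037 to 0.22 and an adjusted p of 0.662. The ratio of CACNA2D2 to CACNA2D1 normalized CPM, not scaled to length, was 0.0727, 0.0707 and 0.0758 with DMSO and 0.0816, 0.0752 and 0.0802 with AZD7762, so that the groups overlapped in AZD7762 replicate 2. The genes whose pattern over the 6 samples was most like that of CACNA2D2, by the root mean square (RMS) difference in mean-centred log2 normalized CPM, were AMOTL1 at 0.0133, WDPCP at 0.0169 and THRA at 0.0206. The pattern of CACNA2D2 itself had an RMS of 0.0632 on that scale.

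The β subunit genes were CACNB2 (ENSG00000165995, chr10:18429353-18832486, plus strand) and CACNB3 (ENSG00000167535, chr12:49207577-49222724, plus strand). CACNB2 read 9.31, 9.93 and 10.3 normalized CPM with DMSO and 9.02, 10.1 and 8.25 with AZD7762. AZD7762 replicate 2 lay within the DMSO samples and the other AZD7762 samples lay under them. Its log2 fold change, -0.11 ± 0.11 (SE) with a 95% interval from -0.34 to 0.12 and an adjusted p of 0.800, was the largest in size among the 10. CACNB3 read 24.0, 23.2 and 27.6 normalized CPM with DMSO and 26.3, 25.7 and 27.0 with AZD7762. The AZD7762 samples lay inside the DMSO range. Its log2 fold change was 0.082 ± 0.081 (SE), with a 95% interval from -0.094 to 0.26 and an adjusted p of 0.799. Exons of CACNB2, CACNA2D2, CACNA1D, CACNA1C, CACNA1H and ABCC8 overlap exons of genes on the other strand over 11.9%, 9.31%, 7.29%, 4.70%, 2.59% and 0.378% of their length. How strand was handled in the counting is not given, so reads from these stretches cannot be assigned to 1 of the overlapping genes with certainty.

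To order the genes by level, normalized CPM were divided by length, as normalized CPM per kb of the union of a gene's exons. In the DMSO samples CACNA2D1 stood first at 133 ± 5.04 (SD, n = 3), 9.72 times the next gene. CACNA2D2 at 13.7 ± 0.346 and CACNA1H at 13.0 ± 3.12 overlapped, and KCNJ11 followed at 9.19 ± 1.28. CACNB3 at 3.49 ± 0.323 and CACNA1D at 3.27 ± 0.152 overlapped. ABCC8 at 2.88 ± 0.0991, CACNA1C at 2.02 ± 0.136, CACNB2 at 0.879 ± 0.0448 and CACNA1A at 0.143 ± 0.00366 each lay apart from their neighbours. The place of ABCC8 rested on the length used. The union of its annotated exons is 27254 bp and its longest transcript 6565 bp, and per kb of longest transcript ABCC8 read 12.0 ± 0.412 and overlapped KCNJ11 at 13.3 ± 1.86. On the latter scale CACNA2D1 stayed first at 158 ± 5.96, CACNA1C, CACNB2 and CACNA1A stayed the lowest, and CACNA2D2, CACNA1H, KCNJ11 and ABCC8 formed a chain in which each overlapped the next.

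**Figure D4:**
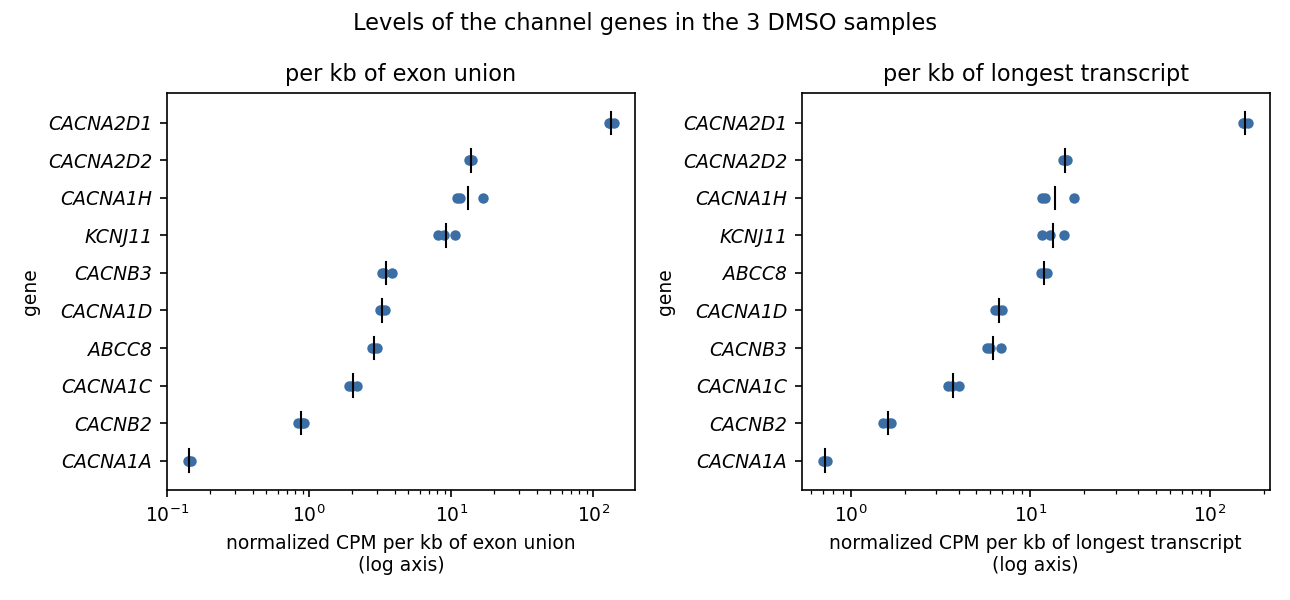
Normalized CPM per kb, on log axes, in the 3 DMSO samples (points) with their mean (line), per kb of exon union (left) and per kb of longest transcript (right). CACNA2D1 is first on both, and ABCC8 moves from 2.88 to 12.0.

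Among all 10 α1 genes of the genome, CACNA1H and CACNA1D were the highest per kb of exon union in the DMSO samples. CACNA1B, the N-type pore gene, came next at 2.91 ± 0.356 (SD, n = 3), overlapping CACNA1D and lying above CACNA1C, while per kb of longest transcript it read 2.94 ± 0.359 and lay under CACNA1C at 3.72 ± 0.250. CACNA1G, another T-type gene, reached 0.954 ± 0.0712. The remaining α1 genes, CACNA1A among them, lay at or under 0.257 per kb of exon union. Per kb of longest transcript CACNA1A read 0.715 ± 0.0183 and lay above CACNA1F at 0.293 ± 0.0837. CACNA1D lay above CACNA1C by a ratio of 1.62 per kb of exon union and 1.79 per kb of longest transcript.

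Other subunits of the calcium channel family were described from a list of 18 genes. Of these, 12 were tested, 0 were called, 5 had a positive and 7 a negative log2 fold change, and the median was -0.064, against 0.0076 over all genes. CACNB4, another β subunit gene, read 2.17, 2.39 and 2.06 normalized CPM with DMSO and 1.35, 1.47 and 1.83 with AZD7762. The AZD7762 samples all lay under the DMSO samples. CACNB4 had a log2 fold change of -0.52 ± 0.18 (SE), with an adjusted p of 0.365, and 6.03% of its exon length is shared with a gene on the same strand. The remaining genes with the smallest p were CACNA1I, a T-type pore gene with a log2 fold change of 0.67 ± 0.38 (SE) at under 1 normalized CPM in each sample, and CACNG4, a γ subunit gene at 180 to 202 normalized CPM with a log2 fold change of 0.085 ± 0.0575 (SE).

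The list of proteins that bind calcium channels held the only gene called among the channel genes and their regulators. Of 13 regulators 10 were tested, and 1 was called, GEM, which was higher with AZD7762, with a background of 0.708% of all genes called. GEM is a small GTPase of the RGK family, whose members bind β subunits and lower calcium current. GEM read 17.4, 16.6 and 15.9 normalized CPM with DMSO and 26.4, 35.5 and 28.1 with AZD7762. The AZD7762 samples all lay above the DMSO samples. Its log2 fold change was 0.84 ± 0.11 (SE), with a 95% interval from 0.61 to 1.08 and an adjusted p of 0.00128, and it was called under 16 of 16 alternative settings.

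REM2, the other RGK gene that was tested, lay the opposite way and did not pass the threshold. It read 4.13, 3.13 and 3.88 normalized CPM with DMSO and 2.11, 2.38 and 2.25 with AZD7762. The AZD7762 samples all lay under the DMSO samples. REM2 had a log2 fold change of -0.73 ± 0.16 (SE), with an adjusted p of 0.0698, and over 16 alternatives the adjusted p ran from 0.00389 to 0.402, with a call in 6. CALM3, which encodes calmodulin, the calcium sensor that binds L-type pores, read 471, 463 and 465 normalized CPM with DMSO and 553, 542 and 518 with AZD7762. The AZD7762 samples all lay above the DMSO samples, with a log2 fold change of 0.20 ± 0.057 (SE) and an adjusted p of 0.204 that ran from 0.0178 to 0.638 over the alternatives, with a call in 2. Over the 10 regulators tested the median log2 fold change was 0.070, with 9 positive and 1 negative. REM1 had no count in any sample, and RRAD and STAC3 were below the filter.

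**Figure D5:**
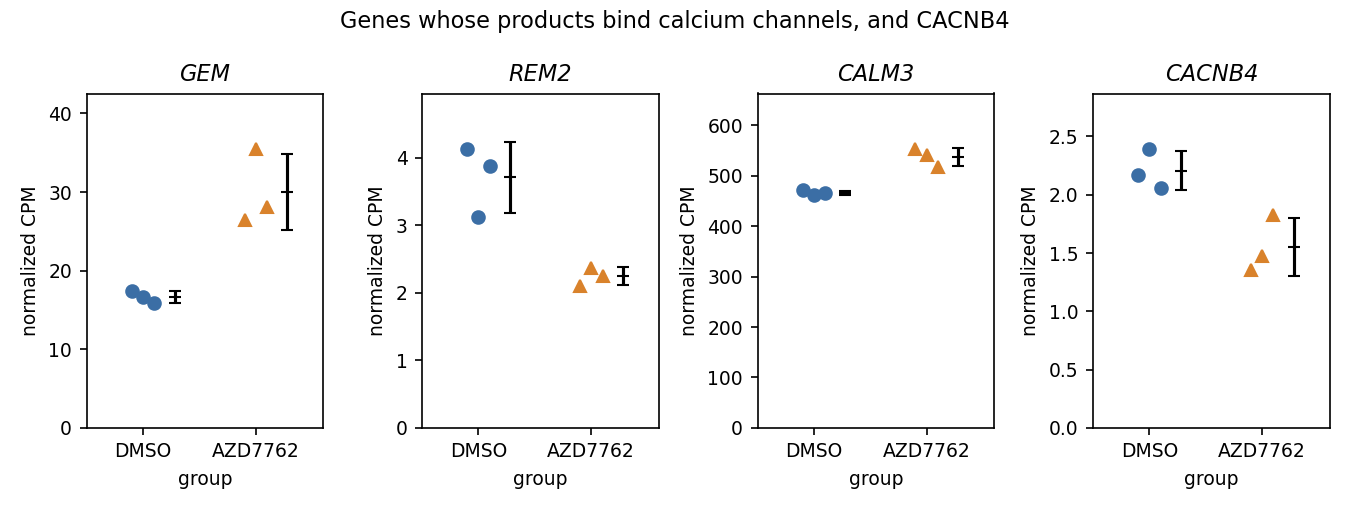
Normalized CPM of GEM, REM2, CALM3 and CACNB4 in each sample, with circles for DMSO, triangles for AZD7762 and the mean with its SD (n = 3) beside them, on axes that start at 0. The groups do not overlap in these 4 genes, and GEM, at 15.9 to 17.4 with DMSO and 26.4 to 35.5 with AZD7762, is the only one called. The 4 genes were named by a call or by the smallest p of their lists. Groups did not overlap for 3 of 10 regulators tested and 1 of 12 other calcium channel subunits tested, against 15.0% of all genes.

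The steps before and after the calcium channels were described in the same way. Over all genes tested, 0.708% were called, 9.68% had an unadjusted p under 0.05 and 15.0% had groups that did not overlap. Of 23 other depolarizing and leak channels, 18 were tested, 0 were called and 1 had an unadjusted p under 0.05, with a median log2 fold change of 0.010. The smallest p belonged to SCN3A, a voltage-gated sodium channel, at 12.7, 13.0 and 13.5 normalized CPM with DMSO and 11.0, 11.5 and 11.6 with AZD7762. The groups did not overlap, and the log2 fold change of -0.20 ± 0.087 (SE) had an adjusted p of 0.482. TRPM5, a calcium-activated cation channel, and SCN2A, another sodium channel, followed with log2 fold changes of 0.33 ± 0.17 (SE) and -0.21 ± 0.13 (SE). Of 26 genes of calcium stores, pumps and exchangers, 25 were tested, 0 were called and 1 had an unadjusted p under 0.05, with a median log2 fold change of 0.0014. It was SLC8B1, the mitochondrial sodium-calcium exchanger, at 12.4, 12.0 and 12.5 normalized CPM with DMSO and 14.3, 13.6 and 14.6 with AZD7762. The AZD7762 samples all lay above the DMSO samples, and the log2 fold change of 0.21 ± 0.085 (SE) had an adjusted p of 0.454. STIM1, the calcium sensor of the endoplasmic reticulum, and ATP2B2, a plasma membrane calcium pump, had log2 fold changes of 0.097 ± 0.059 (SE) and -0.17 ± 0.12 (SE).

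Among the β cell markers, 1 of 16 was called, with a background of 0.708% of all genes called. Of the 16, 4 had an unadjusted p under 0.05, against 9.68% of all genes. The groups did not overlap for 6 of the 16, against 15.0% of all genes, with AZD7762 above in 4 and below in 2. MAFA, a transcription factor of mature β cells that acts on the insulin gene, read 15.3, 15.4 and 21.2 normalized CPM with DMSO and 40.7, 36.1 and 44.6 with AZD7762. The AZD7762 samples all lay above the DMSO samples. MAFA rose by 1.24 ± 0.12 (SE) on the log2 scale, with an adjusted p of 0.000133. NEUROD1, another islet transcription factor, read 1427, 1366 and 1360.3 with DMSO and 1141, 1234 and 1161 normalized CPM with AZD7762. All DMSO samples lay above all AZD7762 samples, with a log2 fold change of -0.23 ± 0.063 (SE) and an adjusted p of 0.182. Over 16 alternatives the adjusted p of NEUROD1 ran from 0.0129 to 0.518, with a call in 5, DESeq2 among them. COL1A2, a stromal collagen gene from the list of other cells, lay between 2.74 and 3.24 normalized CPM with DMSO and between 3.90 and 4.64 with AZD7762, with a log2 fold change of 0.58 ± 0.14 (SE) and an adjusted p of 0.125 that ran from 0.0179 to 0.561 over the alternatives, with a call in 4. The other collagen genes of that list, COL1A1 and COL3A1, had log2 fold changes of 0.062 ± 0.16 (SE) and 0.092 ± 0.23 (SE). CPA1, of the same list, lay between 21.0 and 22.6 normalized CPM with DMSO and between 24.7 and 27.5 with AZD7762. Its log2 fold change was 0.24 ± 0.077 (SE), with an adjusted p of 0.308 and a call in 0 of 16 alternatives. Of the 5 genes tested in that list, 5 had a positive log2 fold change, against 9242 of 17649 over all genes. SST, the δ cell hormone, had a log2 fold change of 0.24 ± 0.063 (SE) and an adjusted p of 0.160 that ran from 0.0099 to 0.627, with a call in 3. Their parts in the values of GEM, MAFA and the channel genes were not tested.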

How the data were processed

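RNA-seq libraries of polyadenylated RNA from 6 EndoC-βH1 samples, 3 with DMSO and 3 with AZD7762, were grouped by treatment from the labels. The authors trimmed the reads, mapped them to GRCh37, assigned them to genes by HTSeq-count and deposited the raw counts, 1 file per sample. The submitters' processing notes name FastQC 0.10.1 and cutadapt 1.18. The annotation release and the strand setting are not given in the sources used here. The library kits are given as alternatives, 1 of which keeps strand, and which kit each sample used is not stated.

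A GENCODE annotation of GRCh37 gave symbols, positions, exon lengths and GC content, matched for 58646 of 60671 identifiers. The analysis used edgeR 4.0.16 (R 4.3.3): filterByExpr, TMM scaling, and a two-sided quasi-likelihood test on treatment alone, adjusted over 17649 genes at 0.05. This called 125 genes, 63 higher and 62 lower with AZD7762. The biological coefficient of variation was 7.15%. Normalized CPM are CPM computed on the TMM-scaled library total. The SE of a log2 fold change is its size divided by the root of the F statistic. Intervals use the t quantile on the residual and prior degrees of freedom. Counts of replicates differed by more than sampling noise. The procedures were tested on simulated counts.

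The members and lists were chosen with earlier results of these data known. Named were the 10 members, each called gene of the other lists, the 3 tested genes with the smallest p of each, and the 3 genes most like the member with the smallest p. CHGA, INS and further genes given only by level, and the collagen genes COL1A1 and COL3A1, were named in addition after their values were seen. A gene that this rule names is not reported here. Alternatives were other scalings (RLE, upper quartile, library totals), no filter, a minimum of 10 counts in every sample, DESeq2 1.42.0, edgeR's likelihood ratio test, the replicate number as a block, GC and length trends taken out as splines, and each sample left out in turn.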

Additional observations from a re-analysis of the deposited data

How the results depend on the processing

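Of the 10 channel genes, 0 were called under each of the 16 alternatives, and their smallest adjusted p was 0.146, for CACNA1H without DMSO replicate 3. An unadjusted p under 0.05 occurred in 2 alternatives, for CACNA1H there and for CACNA1C without AZD7762 replicate 3. The count over all genes, 125, was 330 with no filter on low counts, 267 in the likelihood ratio test and 249 with GC and length trends taken out, and lay between 77, without AZD7762 replicate 1, and 168, without DMSO replicate 3, when samples were left out. With a replicate block it was 378, and 516 with GC and length trends taken out as well. Samples of the same number had correlations of deviations of 0.0831, 0.175 and 0.278, and samples of unlike number had correlations between -0.336 and 0.238. These values do not settle whether the numbers mark pairs. The main fit had no block because the labels do not say that the numbers mark a shared batch. With the block REM2 (adjusted p = 0.0354), CALM3 (0.0184), NEUROD1 (0.0144) and SST (0.0099) were called, which they were not in the main fit. Some signs turned. The log2 fold change of CACNA1A was -0.00088 with RLE, -0.016 with upper quartile scaling, -0.033 with totals, -0.0022 with no filter, -0.0029 with 10 counts in every sample and -0.0065 with the replicate block, and that of ABCC8 was -0.0055 with totals. CACNA2D1 was 0.034 and KRT19 -0.016 with GC and length trends taken out, and 0.033 and -0.015 with the block as well. KCNJ8 was -0.0055 with upper quartile scaling, -0.024 with totals and -0.0012 with trends taken out and the block. Leaving out samples gave log2 fold changes of -0.10 to 0.10 for KCNJ11, -0.014 to 0.057 for ABCC8, -0.11 to 0.062 for CACNA1A, -0.023 to 0.30 for CACNA1H and -0.060 to 0.028 for CACNA2D1, and of -0.043 to 0.0998 for KCNJ8, -0.0086 to 0.16 for KRT19 and -0.097 to 0.31 for GCG. Of 60 such values over the 10 genes, 48 kept their sign and 12 turned, and of 100 values under the other alternatives 91 kept it and 9 turned. The cause was not tested. No scaling moved the median of all genes by over 0.1 on the log2 scale. With 3 samples a group, differences within the 95% intervals of the 10 genes were not excluded. The intervals are not a limit of detection. REM2, with a 95% interval from -1.08 to -0.38, was not called in the main fit. MAFA and GEM were called under every alternative run.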
